A study of Mus musculus with 12 samples.

Results

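The 10 genes described here are α- and β-tubulin genes of the mouse, measured in 12 lung cancer allograft tumors. They were chosen by name, by a rule that uses no measured value but with earlier results of these data known, as *Tuba1a*, *Tuba1b*, *Tuba1c* and *Tuba4a* for α-tubulin and *Tubb2a*, *Tubb2b*, *Tubb3*, *Tubb4b*, *Tubb5* and *Tubb6* for β-tubulin. All 10 were among the 15687 genes of the table, 4 of them α- and 6 β-tubulin genes, and all 10 passed the filter on low values, a mean of at least 5 normalized counts. A normalized count is the number of reads of a gene divided by a size factor of its tumor, so it compares tumors for the same gene and is not corrected for gene length.

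All 12 tumors were syngeneic subcutaneous allografts of mTC11 cells, a mouse lung cancer line, in male C57BL6/J hosts that were 8 weeks of age at injection, and all were taken 24 days later. The CTL group (6 tumors) came from cells with a scrambled short hairpin RNA and the knockdown group (KD, 6 tumors) from cells with a lentiviral hairpin against *Filip1l*. The cells were selected with puromycin, kept as mixed clones chosen by immunoblot and injected in Matrigel. Which of the study's hairpin sequences the sequenced KD tumors carried is not given in the sources used here. Each p-value below measures the spread between tumors, not between clones.

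α- and β-tubulin pair into the dimers from which microtubules are built, the filaments of the mitotic spindle, of cilia and of transport inside the cell. Nascent tubulin is handed by the chaperone prefoldin to the ring-shaped chaperonin CCT, and folding cofactors then join the 2 chains. The isotypes have nearly the same core and differ mostly in a C-terminal tail rich in glutamate, where enzymes add or remove further residues. The study concerns FILIP1L, a protein linked to the turnover of the prefoldin subunit PFDN1, which is why tubulins, as clients of prefoldin, are of interest in these tumors.

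The genes lie on 7 chromosomes, and each has 4 exons in the transcript used here (GENCODE vM21, mouse build GRCm38). *Tuba1b*, *Tuba1a* and *Tuba1c* form a cluster on chromosome 15, with 15271 bases between *Tuba1b* and *Tuba1a* and 76187 bases between *Tuba1a* and *Tuba1c*. *Tubb2a* and *Tubb2b* are neighbours on chromosome 13, 48740 bases apart. The others stand alone, *Tuba4a* on chromosome 1, *Tubb3* on chromosome 8, *Tubb4b* on chromosome 2 and *Tubb5* on chromosome 17, and *Tubb6* on a chromosome of its own.

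The last 60 coding bases before the stop codon are shown for 6 members because all 15 pairs of β members were less alike there than over the whole coding sequence. They run 5′ to 3′ on the coding strand, from the GENCODE vM21 transcripts of GRCm38, and capitals mark in-frame GAA and GAG, the glutamate codons. The stretch of the α gene *Tuba4a* is chr1:75215625-75215684 (minus strand). Those of the β genes are chr13:34074471-34074530 (minus) for *Tubb2a*, chr13:34127474-34127533 (minus) for *Tubb2b*, chr8:123421620-123421679 (plus) for *Tubb3*, chr2:25222311-25222370 (minus) for *Tubb4b* and chr17:35834985-35835044 (minus) for *Tubb5*.
Tuba4a: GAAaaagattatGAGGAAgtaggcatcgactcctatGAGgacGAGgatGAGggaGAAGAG
Tubb2a: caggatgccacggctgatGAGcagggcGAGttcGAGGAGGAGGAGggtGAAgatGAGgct
Tubb2b: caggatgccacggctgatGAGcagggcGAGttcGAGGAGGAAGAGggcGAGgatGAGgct
Tubb3: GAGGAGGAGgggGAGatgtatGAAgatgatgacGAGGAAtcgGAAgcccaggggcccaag
Tubb4b: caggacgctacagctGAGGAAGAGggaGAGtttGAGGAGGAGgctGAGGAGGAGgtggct
Tubb5: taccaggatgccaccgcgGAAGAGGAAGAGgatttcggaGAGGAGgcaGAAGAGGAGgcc

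Between 8 and 10 of the 20 codons of each of these tails encode glutamate, with 10 in *Tubb4b*. *Tuba4a* ends in a glutamate codon. The coding sequences of the α members were 84.7% to 98.3% identical and those of the β members 80.2% to 96.5%. Over the last 60 bases identity among the β members ranged from 41.3% to 95%, the latter for *Tubb2a* and *Tubb2b*.

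This likeness, and the overlap of some members with other genes, bear on the counting, because only unique gene hits were counted. Of all windows of 150 bases, the read length, 54.7% in the *Tuba1a* transcript, 57.9% in *Tuba1b* and 46.7% in *Tuba1c* also occurred in transcripts of other genes, 10 in each case, among them the other genes of the cluster and the overlapping gene model Gm49450. The share was 45.7% for *Tuba4a*, all in *Stk16* on the opposite strand, 27.9% for *Tubb2a* and 20.1% for *Tubb2b*, shared with each other and a pseudogene, and 16.8% for *Tubb4b*, shared with a pseudogene. *Tubb3*, *Tubb5* and *Tubb6* shared 0 windows. The values of the 7 genes that share windows are therefore less certain than those of these 3. The kit is not stated to keep strand, so reads of *Tuba4a* and *Stk16* in their overlap cannot be told apart.

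The libraries held 17834745 to 29502069 reads on listed genes in CTL tumors and 25460564 to 32419578 in KD tumors, with CTL replicate 5 the shallowest. By the mean distance between log2 profiles, KD replicate 1 stood farthest from its own group at 93.9, against 77.0 to 81.0 for the other KD tumors. *Filip1l* itself was 2311 ± 211 normalized counts in CTL and 1924 ± 165 in KD tumors (SD, n = 6 each), at a log2 fold change of -0.26 ± 0.07 (SE, limma adjusted p = 0.00998). The epithelial markers of a lung cancer cell were present, with 5 of 7 higher and 0 lower in KD tumors. Of these 7 *Nkx2-1* was low, at a mean of 17.2 normalized counts in CTL and 39.4 in KD tumors, and was not called (limma adjusted p = 0.443). By the same test, described below, 21.1% of all genes were higher and 20.7% lower. In bulk tumors, fewer cells of a type and less RNA per cell cannot be told apart.

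The first comparison asked which tubulin genes differed in level between CTL and KD tumors. By limma on log2(normalized count + 1), with adjustment over all 15687 genes and a call at an adjusted p under 0.05, 8 of the 10 members were called, 5 lower (*Tubb3*, *Tuba1a*, *Tubb2b*, *Tubb2a* and *Tubb5*) and 3 higher in KD tumors (*Tubb4b*, *Tuba1c* and *Tubb6*). Of all genes tested 41.9% were called, 20.7% lower and 21.1% higher, and among the 5582 genes with a mean at least that of the lowest member 49.6% were called, 25.1% lower and 24.5% higher. The share of members called, 8 of 10, is read against these. The members' median log2 fold change was -0.11, against 0.01 over all genes, and the range ran from -0.85 to 0.39. The groups did not overlap for 4 members, all lower in KD tumors, against 10.9% of all genes in that direction and 21.5% in either, or 26.9% in either among those 5582 genes. At the study's thresholds, which add an absolute log2 fold change over 1, limma called 0 of 10 members and 10.2% of all genes, and 9 of 10 members had an unadjusted p under 0.05.

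**Figure D1:**
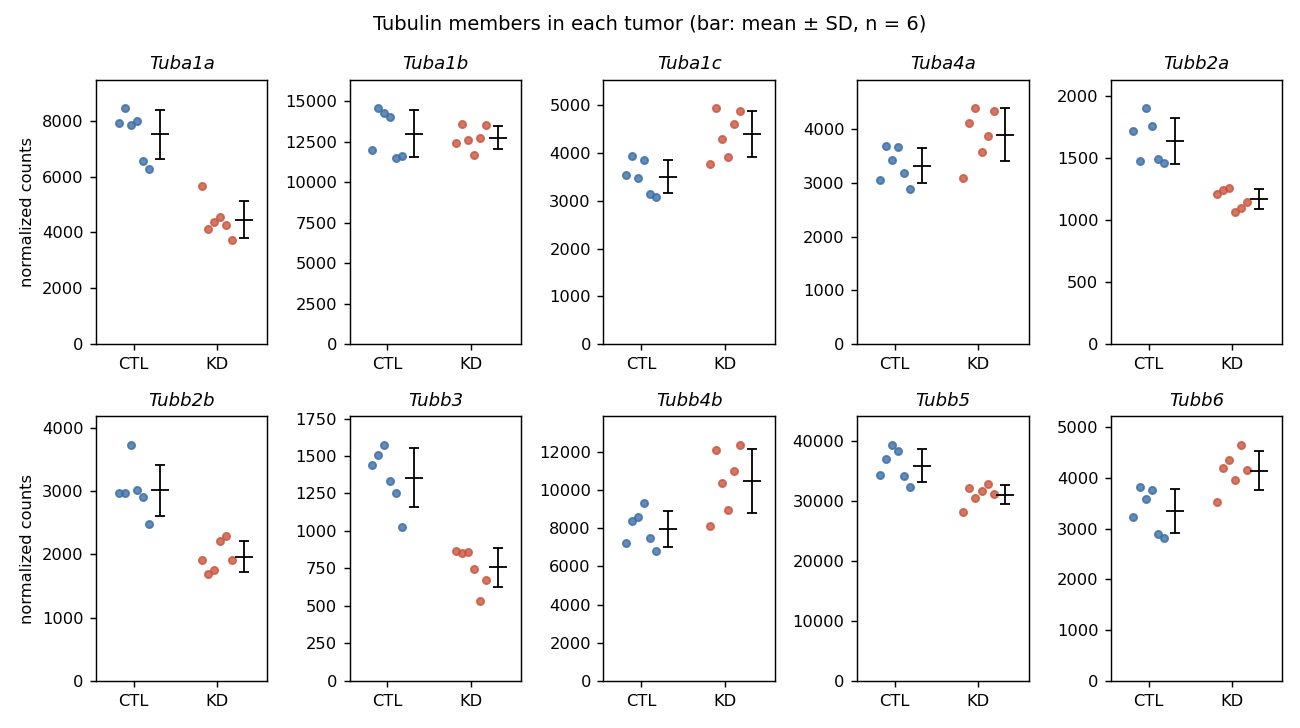
Normalized counts of each of the 10 tubulin genes in each tumor, on axes that start at 0, with 1 point per tumor (blue CTL, red KD) and the mean ± SD of 6 tumors beside them. The KD points lie wholly below the CTL points for *Tuba1a*, *Tubb2a*, *Tubb2b* and *Tubb3*, and the other 6 genes overlap.

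The falls of *Tubb3*, *Tuba1a*, *Tubb2b* and *Tubb2a* were the largest among the members. *Tubb3*, class III β-tubulin and a common neuronal marker that carcinomas also express, had from 1026 to 1575 normalized counts in CTL tumors (median 1387) and from 536 to 869 in KD tumors (median 802). All 6 KD tumors lay below all 6 CTL tumors. The mean fell by 44.2%, a log2 fold change of -0.85 ± 0.13 (SE, limma adjusted p = 0.000125), and an exact permutation of the tumors, two-sided, reached p = 0.00216, the smallest that its 924 arrangements allow. Genes of chromosome 8, where *Tubb3* lies, were lower in KD tumors as a whole, by a median of -0.20 on the log2 scale over 702 genes, and with each tumor's chromosome medians removed the change of *Tubb3* was -0.65 (limma adjusted p = 0.00147).

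*Tuba1a*, the α-tubulin of migrating and newly formed neurons, had from 6279 to 8455 normalized counts in CTL tumors (median 7888) and from 3723 to 5672 in KD tumors (median 4327). The groups did not overlap, and KD replicate 1 was the KD tumor nearest to the CTL tumors. The log2 fold change was -0.76 ± 0.10 (SE, limma adjusted p = 3.39e-05, exact permutation p = 0.00216).

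*Tubb2b*, a β-tubulin of the developing brain, had from 2486 to 3731 normalized counts in CTL tumors (median 2965) and from 1696 to 2296 in KD tumors (median 1913). Its neighbour *Tubb2a* had from 1460 to 1906 in CTL tumors (median 1607) and from 1064 to 1265 in KD tumors (median 1181). In both genes every KD tumor was below every CTL tumor. The log2 fold changes were -0.61 ± 0.10 for *Tubb2b* (SE, limma adjusted p = 0.000147) and -0.48 ± 0.08 for *Tubb2a* (SE, limma adjusted p = 0.000193), each with an exact permutation p of 0.00216. The ratio of *Tubb2a* to *Tubb2b* overlapped between the groups, at 0.546 ± 0.042 in CTL and 0.608 ± 0.111 in KD tumors (SD, n = 6 each).

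*Tubb5*, the β-tubulin of most dividing cells, fell by less. It had from 32391 to 39386 normalized counts in CTL tumors (median 35640) and from 28244 to 32776 in KD tumors (median 31433). In 5 of 6 KD tumors it was below the lowest CTL tumor, and KD replicate 5 lay inside the CTL range. The log2 fold change was -0.21 ± 0.07 (SE, limma adjusted p = 0.0199, exact permutation p = 0.00433).

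*Tubb4b*, a broadly expressed β-tubulin that is also a main tubulin of cilia, showed the largest rise among the members. It had from 6837 to 9319 normalized counts in CTL tumors (median 7928) and from 8146 to 12382 in KD tumors (median 10689). The groups overlapped through KD replicates 1 and 4, and the other 4 KD tumors lay above all CTL tumors. The log2 fold change was 0.39 ± 0.11 (SE, limma adjusted p = 0.0101, exact permutation p = 0.0152).

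*Tuba1c*, a widely expressed α-tubulin, had from 3072 to 3935 normalized counts in CTL tumors (median 3513) and from 3762 to 4940 in KD tumors (median 4444). The log2 fold change was 0.32 ± 0.08 (SE, limma adjusted p = 0.00634, exact permutation p = 0.0108), with 4 of 6 KD tumors above all CTL tumors. *Tubb6*, class V β-tubulin on chromosome 18, had from 2813 to 3814 in CTL tumors (median 3408) and from 3531 to 4656 in KD tumors (median 4178). In *Tubb6* 5 of 6 KD tumors lay above all CTL tumors, and the log2 fold change was 0.31 ± 0.09 (SE, limma adjusted p = 0.0111, exact permutation p = 0.0108). All 3 calls of a rise were lost with each tumor's trends in GC content and length removed, where the log2 fold changes were 0.21 for *Tubb4b*, 0.20 for *Tuba1c* and 0.16 for *Tubb6* (limma adjusted p = 0.0717, 0.0742 and 0.119), while the 5 falls remained called.

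Of the remaining α genes, *Tuba4a*, known from muscle, platelets and adult brain, had from 2893 to 3686 normalized counts in CTL tumors (median 3306) and from 3089 to 4390 in KD tumors (median 3994). Here 4 of 6 KD tumors were above all CTL tumors and the test missed the threshold, at a log2 fold change of 0.23 ± 0.09 (SE, limma adjusted p = 0.0586, exact permutation p = 0.0476). It was called without CTL replicate 2 (limma adjusted p = 0.0449), CTL replicate 4 (0.0457) or KD replicate 1 (0.0073). *Stk16*, whose exons cover 37.3% of those of *Tuba4a*, had a log2 fold change of 0.14 ± 0.05 (SE, limma adjusted p = 0.0502). Every KD tumor (1144 to 1258 normalized counts of *Stk16*) was above every CTL tumor (978 to 1140), at an exact permutation p of 0.00216. With a pseudocount of 8 *Stk16* was called (limma adjusted p = 0.0494).

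*Tuba1b*, the α-tubulin with the highest level, had from 11474 to 14573 normalized counts in CTL tumors (median 13013) and from 11664 to 13584 in KD tumors (median 12664). The KD range fell within the CTL range. The log2 fold change was -0.02 ± 0.07 (SE, limma adjusted p = 0.845), with a 95% interval from -0.18 to 0.14. With GC content and length trends removed it was -0.18 (limma adjusted p = 0.0478).

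**Figure D2:**
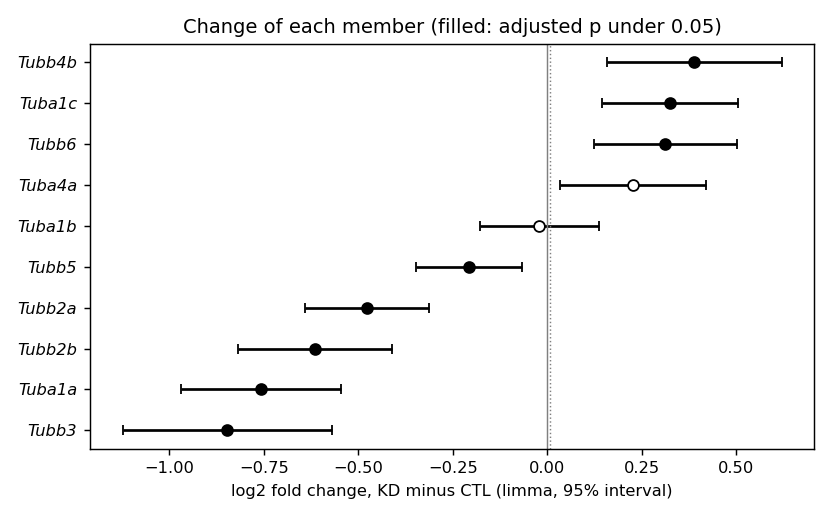
Log2 fold change of each tubulin gene (x axis, KD minus CTL) with its 95% interval from limma, 6 tumors a group, filled where the adjusted p is under 0.05. The dotted line is the median of all genes, 0.01. *Tubb3* is lowest at -0.85 and *Tubb4b* highest at 0.39, and the interval of *Tuba1b* spans 0.

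A second view compared the genes with each other, as normalized counts per kilobase of the longest annotated transcript. By that length *Tubb5* stood highest in CTL tumors at 13563 ± 1031 per kilobase and *Tubb3* lowest at 726 ± 106 (SD, n = 6). Between them came *Tuba1b* (7453 ± 827), *Tubb4b* (4991 ± 588), *Tuba1a* (4165 ± 486), *Tubb6* (1906 ± 248), *Tuba1c* (1770 ± 178), *Tubb2b* (1380 ± 185), *Tuba4a* (1169 ± 116) and *Tubb2a* (1016 ± 115). The ranges of neighbours in this order overlapped for *Tubb4b* and *Tuba1a*, *Tubb6* and *Tuba1c*, *Tuba1c* and *Tubb2b*, *Tubb2b* and *Tuba4a*, and *Tuba4a* and *Tubb2a*. In each CTL tumor the first of the pair was still the higher one.

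In KD tumors the order was the same but for *Tuba4a* (1371 ± 175 per kilobase), which passed *Tubb2b* (900 ± 110) with no overlap of the ranges. *Tuba1a* (2471 ± 366) came down to the level of *Tubb6* (2357 ± 216), and it was the higher of these in 2 of 6 KD tumors, against 6 of 6 CTL tumors. *Tubb4b* (6567 ± 1059) came close to *Tuba1b* (7316 ± 417), with overlapping ranges that were apart in CTL tumors. This order depends on the length taken for a transcript. With the mean length of the annotated transcripts *Tuba4a* (2848 ± 282 per kilobase) stood above *Tuba1c*, *Tubb6* and *Tubb2b* (2305 ± 308) in CTL tumors already. On that scale *Tuba1a* was below *Tubb6* in KD tumors (2471 ± 366 and 3105 ± 285, with *Tubb6* higher in 5 of 6 tumors), and *Tubb4b* and *Tuba1b* were apart in both groups.

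The question whether the tubulin mRNA of the 10 members together differed was put to their summed levels, as a description with no test. Tubulin genes outside the 10 members, among them *Tubb4a* and *Tuba8* described below, are not in these sums. Summed α-tubulin was 14557 ± 1523 per kilobase in CTL and 13376 ± 543 in KD tumors, and summed β-tubulin 23582 ± 2119 and 22689 ± 1634 (SD, n = 6 each). Both sums overlapped between the groups. *Tuba1a* made up 27.4% to 31.1% of the α sum in CTL tumors and 14.9% to 23.8% in KD tumors. *Tuba1c* made up 11.3% to 12.6% and 14.3% to 17.8%, and *Tuba1b* 48.6% to 52.8% and 53.7% to 56.2%. These 3 shares did not overlap between the groups, and that of *Tuba4a* did.

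Among the β members *Tubb4b* made up 20.1% to 22.7% of the sum in CTL tumors and 25.6% to 32.5% in KD tumors. *Tubb5* made up 56.5% to 59.1% and 49.4% to 54.7%, and *Tubb6* 7.45% to 8.87% and 9.91% to 11.1%. *Tubb3* went from 3.07% ± 0.30 to 1.80% ± 0.40 and *Tubb2b* from 5.84% ± 0.44 to 3.98% ± 0.56 (SD, n = 6 each). Of the β shares that of *Tubb2a* alone overlapped between the groups. Shares depend on the length taken for a transcript: with the mean length of the annotated transcripts *Tuba1b* made up 54.5% ± 1.31 in CTL and 55.5% ± 0.73 in KD tumors and overlapped, and the other shares kept their direction and whether they overlapped.

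**Figure D3:**
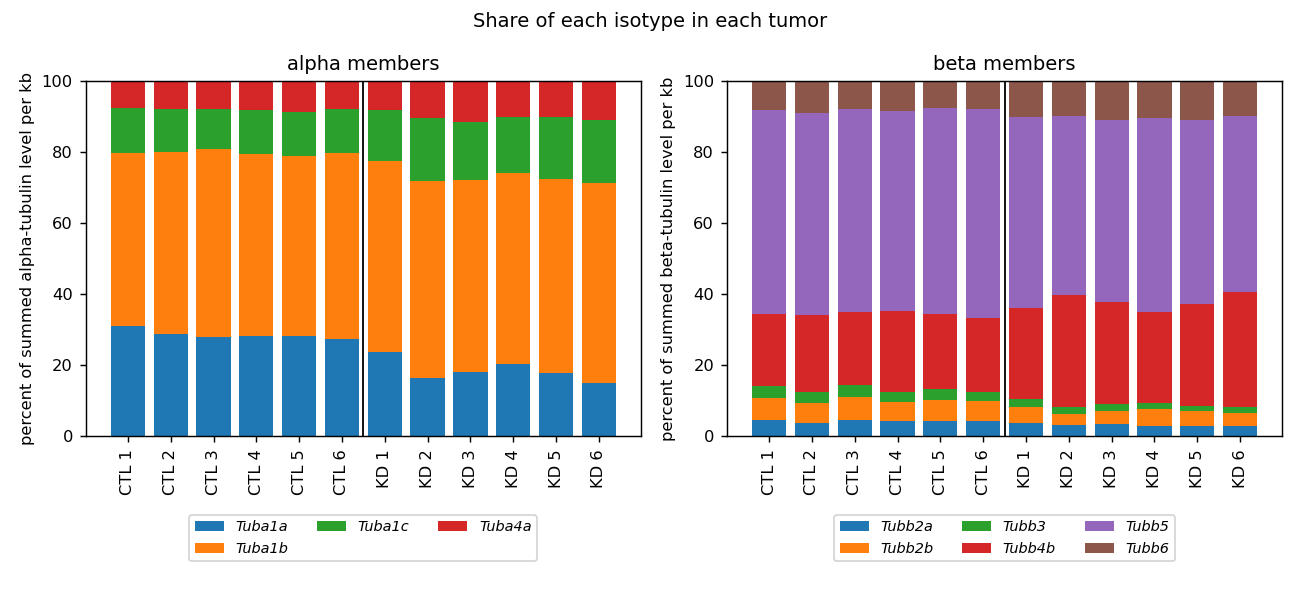
Share of each isotype in the summed level per kilobase of the α members (left) and the β members (right), in percent. There is 1 bar per tumor, with the CTL tumors left of the line. In KD tumors the *Tuba1a* band is narrower (14.9% to 23.8%) and the *Tubb4b* band wider (25.6% to 32.5%) than in any CTL tumor.

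Tumors of 1 group also differed together. CTL replicate 6 was the lowest CTL tumor for 9 of the 10 members and CTL replicate 2 or 3 the highest for 9. KD replicate 1 was the lowest KD tumor for 5 members, and for 5 of the 8 called members it was the KD tumor nearest to the CTL mean. Within a tumor, 3 ratios of members are given as a description with no test, and 2 of them set a member called higher against one called lower. The ratio of *Tubb4b* to *Tubb5* counts was 0.211 to 0.243 in CTL and 0.282 to 0.398 in KD tumors, that of *Tuba1a* to *Tuba1b* 0.540 to 0.662 and 0.275 to 0.457, and that of *Tubb3* to *Tubb6* 0.355 to 0.446 and 0.115 to 0.246. KD replicate 1 was the KD tumor nearest to the CTL tumors in the last 2 ratios.

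Genes whose pattern over the 12 tumors was most like that of a member were sought by the smallest root mean square difference of mean-centred log2 values, among genes with a mean of at least 50. For *Tubb3* these were *P4ha3* (difference 0.139, log2 fold change -0.72), *Nxpe3* (0.139, -0.73) and ENSMUSG00000108658 (0.154, -0.76). For *Tubb4b* they were *Ndufb2* (0.0582, 0.35), *Ndufs6* (0.0655, 0.39) and *Cox7a2* (0.0683, 0.32), which encode subunits of the respiratory chain. The measure takes in the difference between the groups, and 41.9% of all genes were called. Likeness within a group was not examined, and a link between these genes was not tested.

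Among the 10 other tubulin genes sought, 6 were listed, and 2 of them passed the study's thresholds. *Tubb4a*, a β-tubulin of myelinating cells and neurons, had from 786 to 1220 normalized counts in CTL tumors (median 1095) and from 183 to 379 in KD tumors (median 216). It showed a larger change than any member, with a log2 fold change of -2.09 ± 0.18 and no overlap (SE, limma adjusted p = 1.19e-06). *Tuba8*, an α-tubulin of muscle and testis, rose from a low level, 7 to 28.2 normalized counts in CTL and 32.9 to 87.6 in KD tumors, with a log2 fold change of 1.68 ± 0.34 (SE, limma adjusted p = 0.00134). *Tube1*, ε-tubulin of the centriole, had a log2 fold change of 0.35 (limma adjusted p = 0.0242). It missed the threshold on a scale of equal totals (limma adjusted p = 0.0557), with the replicate numbers as a block, and without CTL or KD replicate 4. The γ-tubulins that nucleate microtubules were not called, *Tubg1* at -0.02 and *Tubg2* at 0.00 on the log2 scale, nor was *Tubd1* at 0.28 (limma adjusted p = 0.895, 0.997 and 0.107). The counts of *Tuba3a*, *Tuba3b*, *Tubal3* and *Tubb1* were not analysed here.

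The genes that fold tubulin were counted next, beside 20.7% of all genes called lower and 21.1% called higher. Of the 6 prefoldin subunits limma called 0, with 0 at an unadjusted p under 0.05, and their median log2 fold change was -0.02. *Pfdn1* mRNA was 1628 ± 166 normalized counts in CTL and 1588 ± 189 in KD tumors (SD, n = 6 each), at a log2 fold change of -0.04 with a 95% interval from -0.23 to 0.15 (limma adjusted p = 0.765), but with GC content and length trends removed 4 of the 6 subunits were called lower, *Pfdn1* among them at -0.29 (limma adjusted p = 0.00329). Of the 8 CCT subunits, 3 fell and 0 rose, *Cct6a* by 0.18, *Cct5* by 0.15 and *Cct4* by 0.13 on the log2 scale (limma adjusted p = 0.00752, 0.0124 and 0.0384). With the replicate numbers as a block 1 of these 3 calls remained, and that of *Cct4* was lost in 7 of 12 fits that left out 1 tumor (adjusted p up to 0.0836).

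Of the 8 genes listed as folding cofactors or related to them, *Tbcc* and *Tbce* rose, each by 0.24 on the log2 scale (limma adjusted p = 0.0306 and 0.0162). Neither was called with GC content and length trends removed. *Tbce* also lost its call on a scale of equal totals and with the replicate numbers as a block. *Tbcc* also lost its call in 7 of 12 fits without 1 tumor (adjusted p up to 0.0721). *Arl2*, the small GTPase that works with cofactors D and E, fell by 0.80 (limma adjusted p = 6.92e-06), with no overlap between 1036 to 1454 normalized counts in CTL and 666 to 785 in KD tumors. *Arl2* lies on chromosome 19, whose genes had a median log2 shift of -0.36 in KD tumors, and with chromosome medians removed its change was -0.44 (limma adjusted p = 0.000853).

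Cells lower their tubulin mRNA when free dimers accumulate, through TTC5, which recognises the first residues of nascent tubulin, and the CCR4-NOT deadenylase. The first 12 coding bases that encode these residues are shown for 1 α and 2 β members, and capitals mark the glutamate codon that follows the start codon and an arginine codon in each.
Tuba4a: atgcgcGAGtgc
Tubb2b: atgcgaGAGatc
Tubb5: atgaggGAAatc
Of the 6 genes listed for this pathway, *Ttc5* rose, with a log2 fold change of 0.47 ± 0.07 (SE, limma adjusted p = 0.000121), and the other 5 were not called. It lies on chromosome 14, whose genes had a median log2 shift of 0.38 in KD tumors, and with chromosome medians removed its change was 0.09 (limma adjusted p = 0.36).

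Among 20 listed enzymes that modify tubulin, 5 fell and 0 rose, against 20.7% of all genes lower and 21.1% higher, and the list's median was -0.02. *Hdac6*, the main tubulin deacetylase, had a log2 fold change of -0.51 ± 0.10 (SE, limma adjusted p = 0.000642). *Ttl*, the ligase that puts back the C-terminal tyrosine of α-tubulin, had -0.45 ± 0.07 (limma adjusted p = 0.00014), with 697 to 875 normalized counts in CTL and 536 to 619 in KD tumors. *Ttll5*, a polyglutamylase, had -0.45 ± 0.07 (limma adjusted p = 0.000118), and *Agbl3*, a carboxypeptidase that trims glutamate, -0.47 ± 0.15 (limma adjusted p = 0.0217), a call lost without CTL replicate 5, CTL replicate 6 or KD replicate 2 (adjusted p up to 0.0528). The groups did not overlap for *Hdac6*, *Ttl* and *Ttll5*.

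Of 32 listed microtubule-associated and plus-end proteins, 6 rose and 14 fell, with a median of -0.16. These counts and those of the γ-tubulin ring complex stand beside 21.1% of all genes higher and 20.7% lower. *Mapt*, which encodes tau, had 48.8 ± 11 normalized counts in CTL and 221 ± 40.2 in KD tumors (SD, n = 6 each) and rose, at a log2 fold change of 2.16 (limma adjusted p = 6.23e-07). The log2 fold changes were -1.65 for *Dclk1*, a doublecortin-like kinase, -1.95 for *Stmn4*, a stathmin that sequesters dimers, and -1.13 for *Map2*, a dendritic protein (limma adjusted p = 8.04e-06, 0.000238 and 0.00484). *Stmn4* was at a low level, with means of 43.8 normalized counts in CTL and 10.9 in KD tumors. *Map2* was low as well, with means of 80.6 and 37.8, and its groups overlapped. Of the 11 genes of the γ-tubulin ring complex and its anchors, *Mzt1* rose by 0.59 (limma adjusted p = 1.45e-05) and *Tubgcp3* and *Tubgcp5* fell by 0.32 and 0.24 (0.00281 and 0.0467). *Mzt1* lies on chromosome 14 and *Tubgcp3* on chromosome 8, and with chromosome medians removed *Mzt1* was at 0.21 and *Tubgcp3* at -0.12 (limma adjusted p = 0.0151 and 0.207). The call of *Tubgcp5* was lost in 8 of 12 fits without 1 tumor (adjusted p up to 0.108).

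**Figure D4:**
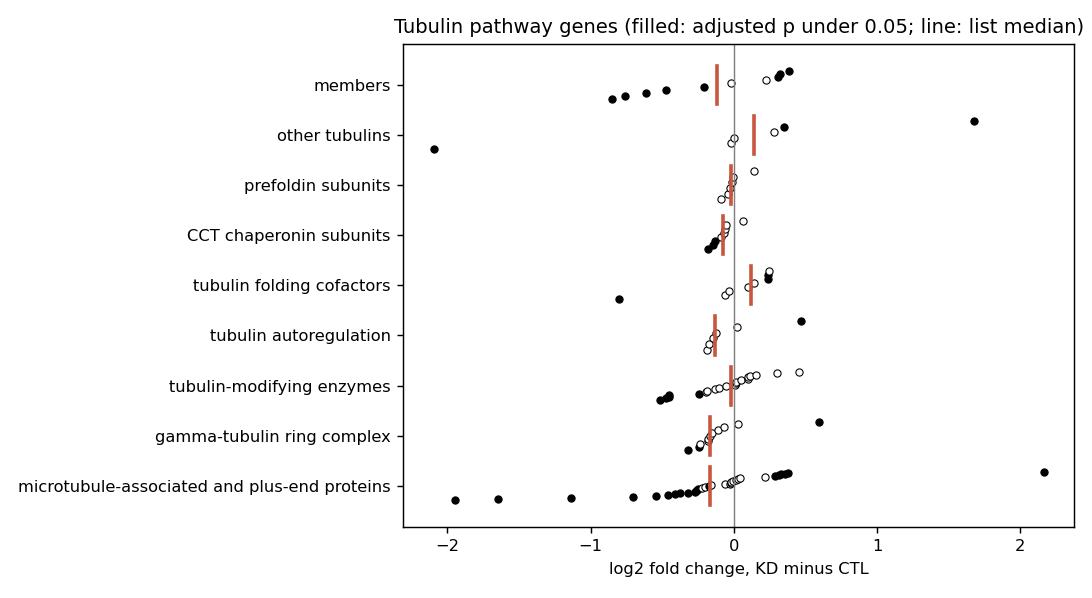
Log2 fold change (x axis, KD minus CTL) of each listed gene of 9 groups of tubulin-related genes (y axis), 6 tumors a group, filled where the limma adjusted p is under 0.05, with the median of each list as a line. Prefoldin has 0 filled points and a median of -0.02, the enzymes have 5, all below 0, and the microtubule-associated proteins spread from -1.95 to 2.16.

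Of 6 actins, the other clients of prefoldin and CCT, 2 were called higher and 2 lower. Of all genes 21.1% were called higher and 20.7% lower. *Actg1*, cytoplasmic γ-actin, rose in all 6 KD tumors above all CTL tumors, with 47507 ± 2227 normalized counts in CTL and 63118 ± 5438 in KD tumors (SD, n = 6 each) and a log2 fold change of 0.41 (limma adjusted p = 0.000405). *Acta1*, skeletal muscle actin, rose by 2.15 on the log2 scale, but unevenly (limma adjusted p = 0.0119). It had from 699 to 4041 normalized counts in CTL and from 1724 to 29765 in KD tumors, and the groups overlapped. The smooth muscle actins *Acta2* and *Actg2* fell by 0.61 and 0.96, also with overlap (limma adjusted p = 0.0145 and 0.0069). *Actb* at 0.24 and *Actc1* at 1.46 were not called (limma adjusted p = 0.0745 and 0.0774). *Acta2* lies on chromosome 19 and was at -0.25 with chromosome medians removed (limma adjusted p = 0.298).

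Markers of other cells moved between the groups beside these tubulin genes. Their counts, here and in the next paragraph, are read against 20.7% of all genes called lower and 21.1% called higher. Neurons were sought because *Tubb3*, *Tuba1a* and *Tubb2b* mark them. Of 11 neuron markers 6 were listed, *Rbfox3*, *Snap25*, *Elavl3*, *Elavl4* and *Nefm* were not among the listed genes, *Map2* fell and *Prph* rose, and the sum over the list was 161 to 179 normalized counts in CTL and 105 to 226 in KD tumors. Of 4 listed Schwann cell markers 2 rose (sums 2205 to 3291 in CTL, 2106 to 3746 in KD), and *Sox10* and *Foxd3* were not listed. Skeletal muscle markers rose in 8 of 9 cases, from sums of 2604 to 13322 in CTL to 6490 to 96253 in KD tumors. This was 6 of 9 without CTL replicate 2, 3 or 5 or KD replicate 1, 3 or 4, and 9 of 9 without CTL or KD replicate 6. Fibroblast markers fell in 3 of 8 (7 of 8 without KD replicate 1), with sums of 161690 to 264544 and 75744 to 254618.

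Neutrophil markers rose in 5 of 5 cases (sums 278 to 352 in CTL, 742 to 1153 in KD), endothelial markers in 4 of 5 (2042 to 2589 and 2601 to 4126) and platelet markers in 1 of 4 (517 to 675 and 654 to 1178). Epithelial markers had sums of 149317 to 196129 in CTL and 215099 to 394122 in KD tumors. Of 6 macrophage markers 1 rose, *Cd68* (sums 12530 to 17077 and 11019 to 20388). The call of *Cd68* was lost in 6 of 10 other alternatives and in 9 of 12 fits without 1 tumor. Of 5 T cell markers limma called 0, with 0 at an unadjusted p under 0.05 (658 to 1775 and 772 to 1438). Of 4 listed markers of multiciliated cells, where *Tubb4b* is abundant, *Dnah9* rose and *Foxj1* fell (146 to 224 and 133 to 192). Of 11 proliferation genes 1 fell, *Mcm2* at -0.28 (limma adjusted p = 0.00721), with sums of 27463 to 35051 and 29348 to 32811. An unadjusted p under 0.05 was reached by 4 of the 11. *Birc5*, *Plk1* and *Ccnb1*, at 0.24, 0.25 and 0.21 on the log2 scale, missed the threshold (limma adjusted p = 0.0542, 0.0664 and 0.0838). Without CTL replicate 2, CTL replicate 3 or KD replicate 1, 2 proliferation genes were called higher and 1 lower. The part of any of these cells in the tubulin differences was not tested.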

How the data were processed

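RNA of 12 tumors (6 CTL, 6 KD, grouped by the titles of their labels) was sequenced by the authors. By the processing notes of the submitters, reads were converted with bcl2fastq 2.20, trimmed with Trimmomatic 0.36, aligned with STAR 2.5.2b to mm10, counted per gene with featureCounts (Subread 1.5.2) and scaled with DESeq2. The authors deposited the counts divided by size factors, a normalized signal. All values (100%) lay within 0.01 of a whole multiple of a step per tumor. This step served to give the number of reads, and no count test was run. Columns left unused numbered 0.

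Groups were compared with limma 3.58.1 (R 4.3.3) with a mean-variance trend on log2(value + 1), with Benjamini-Hochberg adjustment over the 15687 genes. The filter at a mean of 5 removed 0 genes, because the lowest mean in the deposited values was 9.28. Single genes also got exact two-sided permutation tests. Fold changes on this scale understate those of low genes. Positions, lengths and sequences came from GENCODE vM21, where 15655 identifiers (99.8%) were found. The coding ends of 4 members are not printed here. Steps were tested on simulated data, and figures drawn with matplotlib 3.10.9. Intervals cover the spread between tumors, and counting error was not modelled.

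The members and the gene lists were chosen with earlier results of these data known. Besides the members, *Filip1l* and *Pfdn1*, named genes are the called genes with the largest change in each list (at most 4), the other listed tubulins and the 3 genes most alike to the members of largest rise and fall. *Stk16* and genes that were not called were named after their values were seen. The alternatives took pseudocounts of 0.5 or 8, a filter at 20 or none, equal 75th percentiles or totals, no trend, a replicate block, removal of chromosome medians or of GC content and length trends, mean transcript lengths, and leaving out each tumor.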

Additional observations from a re-analysis of the deposited data

Results flagged for a closer look

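The share of *Tuba1a* in summed α-tubulin was 31.1% in CTL replicate 1, apart from the other CTL tumors, the nearest of which had 28.7%. The gap was 0.645 of the group's range. Among the 60 groups of values checked it was the 1 set apart in this way, and chance sets apart about 1 in 20. *Tuba1a* itself had 7934 normalized counts in that tumor, inside the range of the other CTL tumors.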

How the results depend on the processing

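With 1 tumor left out in turn (12 fits), 8 to 9 members were called, and 5889 to 6931 genes. The 8 called members kept their direction and their call in all 12. *Tuba4a* joined them in 3. In the 10 other alternatives 6 to 8 members were called, and 0 passed both thresholds in any. The alternative with no filter is the same fit as the main one, because the filter removed 0 genes. With GC content and length trends removed 0 members were called higher and 6 lower, and 42.3% of calls over all genes were higher, against 50.5%. The cause was not tested.

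Genes near 0 changed sign. *Tuba1b* was 0.0322 with chromosome medians removed and ranged from -0.0557 to 0.0133 over the fits that left out 1 tumor. *Tubg1* ranged from -0.0730 to 0.0311, *Tubg2* from -0.12 to 0.0799 and *Pfdn1* from -0.0837 to 0.0015. With the mean transcript length, the difference of the β to α ratio went from 0.0729 to -0.0608. No source says that replicate numbers pair tumors, and the deviations of same-numbered tumors correlated at -0.280 to 0.0796. With the replicate block 5905 genes and 8 members were called.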
